A study of Mus musculus with 28 samples.

Results

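Female mice deprived of sleep and left unrestrained were compared with unrestrained home cage control females, 4 mice against 4, across every gene of the pituitary count table. These 8 mice, identified from the sample labels, are part of a series of 28. All were female C57BL/6J mice, 8 weeks old by the labels. The PSD group spent 12 h under paradoxical sleep deprivation (PSD), in which cage mates stand on small columns above water and wake when muscle tone is lost in REM sleep, and whole pituitaries were taken 18 h after it ended. Home cage controls stayed in the same room, and mice of both groups had been habituated to the tank on the days before. The other females used below were restrained for 20 min and killed 10 min later, 4 of them after PSD and 4 without PSD. Unrestrained males, 3 after PSD and 4 home cage controls, were also used. Which mice shared a cage or a tank, and the oestrous stage of each female, are not given in the sources used here. The p-values therefore measure only the spread between the mice in each fit.

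The anterior pituitary holds corticotropes, gonadotropes, thyrotropes, somatotropes and lactotropes, each of which packs its own hormone into secretory granules, and melanotropes of the intermediate lobe process the same precursor as corticotropes (Pomc) into other peptides. Luteinizing hormone, follicle-stimulating hormone and thyrotropin share one alpha subunit, encoded by Cga, and differ in their beta subunits. Granins and prohormone convertases build the granules and cut the precursors inside them, and sleep loss acts on the gland through hypothalamic signals, glucocorticoids and the cytokines of the acute phase response.

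Counts on genes came to between 23077710 and 47530774 per control mouse and to 18035775, 18727938, 19532245 and 42243802 in PSD mice 1 to 4, so that the PSD group was the shallower except for mouse 4. Gh, Prl and Pomc together took between 29.6% and 32.7% of the counts in controls and between 27.1% and 34.3% after PSD. PSD mouse 1 stood apart from the other mice in transcripts of olfactory and brain cells. To a smaller degree PSD mouse 3 did so in glial and some neuronal transcripts, and control mouse 2 in olfactory ones, with values given below. Expression is given in CPM, counts scaled to a common library size with TMM factors, and a log2 fold change is PSD minus control. The test was edgeR's quasi-likelihood test, with p-values adjusted by Benjamini and Hochberg's method over all genes tested. The spread of each gene was estimated over all 16 females of the series, the restrained mice included. Calling a gene required an adjusted p no higher than 0.05 and a fold change whose log2 was 0.322 or more in either direction.

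Of 18059 genes tested, 5 were called: Lcn2, Clu, Nmb and Rab26 rose after PSD and Cga fell. This is 0.0221% of the tested genes in the upward and 0.00554% in the downward direction. A further 70 genes had an adjusted p between 0.05 and 0.10, so that 50 genes (0.277%) lay above and 25 (0.138%) below control within that limit. Before adjustment, 1917 genes (10.6%) stood above control and 1650 (9.14%) below it with p under 0.05. The number called depended on the tool and on the mice in the fit. DESeq2 called 296 genes higher (1.72% of the 17247 to which it gave an adjusted p) and 110 lower (0.638%), the 5 genes among them. The tool limma-voom called 3. With only the 8 mice of the comparison in the edgeR fit 0 were called (3023 at an unadjusted p under 0.05). Leaving out 1 mouse at a time gave 0 to 557 by edgeR.

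**Figure D1:**
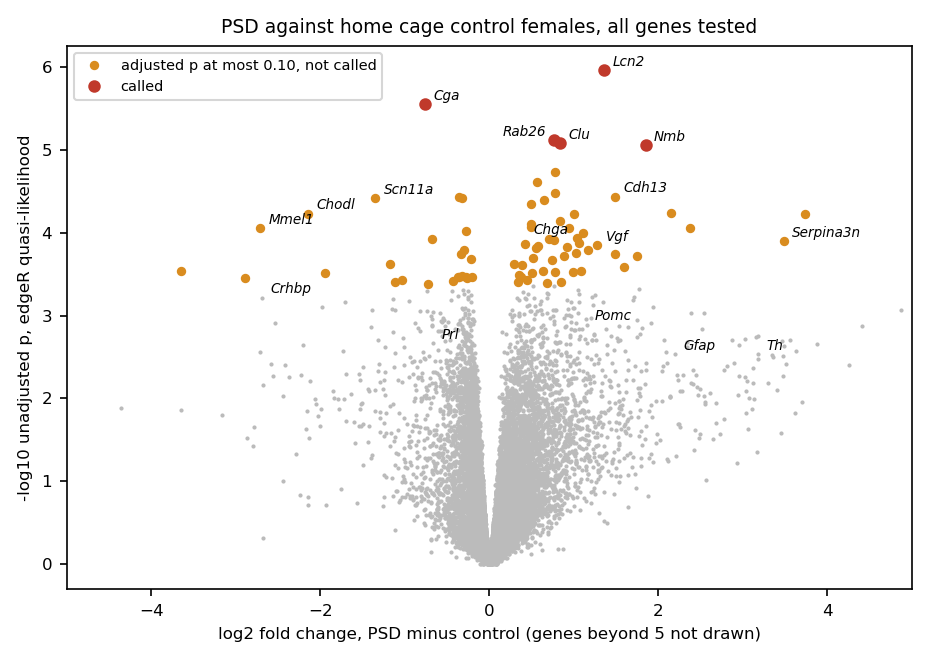
Each point is a gene, with its log2 fold change (PSD minus home cage control, females) on the x axis and −log10 of its unadjusted edgeR p on the y axis, and 5 genes with changes beyond 5 log2 units are not drawn. The 5 called genes are in red and the 70 further genes with an adjusted p of at most 0.10 in orange, 50 of the 75 to the right of 0.

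Lcn2 encodes lipocalin 2, a secreted protein that binds iron-carrying siderophores and is a classical product of the acute phase response. Its level was 16.9, 15.6, 10.1 and 12.9 CPM in control mice 1 to 4 and 43.0, 37.4, 33.1 and 28 CPM in PSD mice 1 to 4. Every PSD mouse exceeded every control, and the lowest PSD mouse, mouse 4, still lay above the highest control. Lcn2 (chromosome 2, 32384633 to 32388252, minus strand, GRCm38) rose by 1.36 on the log2 scale (standard error 0.18, adjusted p = 0.0199).

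Clu encodes clusterin, an extracellular chaperone that also counts among acute phase genes. Control mice 1 to 4 had 597, 514, 486 and 563 CPM, and PSD mice 1 to 4 had 810, 1213, 1021 and 784 CPM. The groups did not overlap, and from highest to lowest the PSD mice were 2, 3, 1 and 4. Clu (chromosome 14, 65968483 to 65981547, plus strand) rose by 0.84 on the log2 scale (standard error 0.13, adjusted p = 0.0317).

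Nmb encodes neuromedin B, a bombesin-like peptide made in the pituitary, where it is known to act on thyrotropes. It was counted at 6.79, 3.79, 5.06 and 4.97 CPM in the controls and at 18.6, 27.1, 17.3 and 11.8 CPM in PSD mice 1 to 4. All PSD mice lay above all controls, with mouse 2 the highest and mouse 4 the lowest. Nmb (chromosome 7, 80902227 to 80905076, minus strand) had the largest log2 fold change of the 5, 1.85 (standard error 0.29, adjusted p = 0.0317).

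Rab26 encodes a small GTPase of secretory vesicles. Control mice 1 to 4 had 6.67, 5.79, 5.73 and 5.45 CPM, while PSD mice 1 to 4 had 11.9, 10.51, 9.59 and 8.02 CPM, again with no overlap and with mouse 4 nearest to the controls. Rab26 (chromosome 17, 24527241 to 24534210, minus strand) rose by 0.77 (standard error 0.12, adjusted p = 0.0317).

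Cga, the alpha subunit shared by 3 glycoprotein hormones, was the called gene that fell. Control mice 1 to 4 had 3521, 2949, 3667 and 2656 CPM, and PSD mice 1 to 4 had 2009, 1784, 1903 and 1794 CPM. The PSD mice lay within a narrow band below every control, with an SD of 106 CPM around 1873 CPM (n = 4) against 476 around 3198 CPM (n = 4). The log2 fold change of Cga (chromosome 4, 34893779 to 34907370, plus strand) was -0.76 (standard error 0.11, adjusted p = 0.0257). In whole glands, fewer cells of a type and less RNA per cell cannot be told apart.

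**Figure D2:**
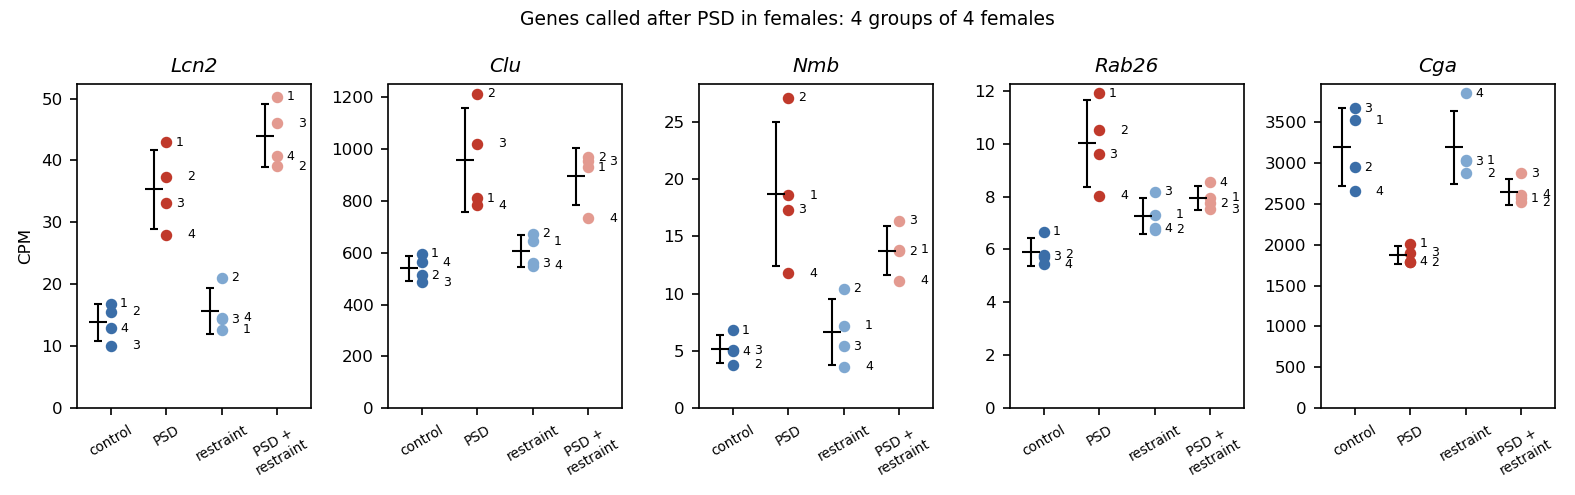
CPM of the 5 called genes (y axis from 0) in each female, numbered 1 to 4 within its group, with the mean and SD beside the points. For Lcn2, Clu, Nmb and Rab26 all 4 PSD mice sit above all 4 controls, and for Cga all 4 sit below. The restrained groups on the right of each panel hold other mice.

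The 250 bases upstream of the RefSeq start are shown for Cga, the gene that fell, and Nmb, the gene with the largest fold change, to set side by side a promoter of a classical hormone subunit and one rich in G and C. Capitals mark matches, on either strand, to 5 short motifs that were searched: TATAAA (the TATA box), TGACG (the core of the cyclic AMP response element), TGACCTTG (a steroidogenic factor 1 site), AGAACA (a glucocorticoid half-site) and TTGCNNAA (a C/EBP site).
Cga, GRCm38.p6 chr4:34893529-34893778, plus strand: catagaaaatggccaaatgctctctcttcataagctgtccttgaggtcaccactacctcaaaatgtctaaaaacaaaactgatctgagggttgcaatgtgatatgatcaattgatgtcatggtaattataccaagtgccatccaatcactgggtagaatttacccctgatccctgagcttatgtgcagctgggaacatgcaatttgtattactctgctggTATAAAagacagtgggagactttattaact
Nmb, GRCm38.p6 chr7:80905063-80905312, minus strand: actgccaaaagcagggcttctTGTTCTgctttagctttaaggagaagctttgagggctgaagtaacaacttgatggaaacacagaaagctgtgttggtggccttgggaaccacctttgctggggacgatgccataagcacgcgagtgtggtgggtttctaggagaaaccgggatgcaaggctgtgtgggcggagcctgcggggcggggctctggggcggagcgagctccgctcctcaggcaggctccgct
The match in Cga is the TATA box, whose first base lies at -30 from the start, and 12.4% of 32851 RefSeq promoters hold TATAAA in a window of this length. The match in Nmb is the glucocorticoid half-site on the other strand at -229, which 16.1% of promoters hold, while TGACG stands in 17.8%, TGACCTTG in 1.33% and TTGCNNAA in 9.56%. G and C make up 40.0% of the Cga window and 58.0% of the Nmb window. A match is a run of letters and was not tested as a site. Variants of these strings were not searched, so a missing match does not show that an element is absent.

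Beyond the called genes, the 30 genes with the smallest p whose PSD mice all lay on one side of all controls, 15 on each side, all at a mean of at least 1 CPM and including the 5 called, had adjusted p between 0.0199 and 0.0952. Separation of the groups was itself part of how these 30 were picked, and over all tested genes 3.64% had every PSD mouse above every control and 5.37% had every PSD mouse below. On the upper side the log2 fold changes of the 15 ran from 0.49 to 2.15 and the adjusted p from 0.0199 to 0.0671. Cdh13, the glycosylphosphatidylinositol-anchored cadherin, was at 22.2, 12.0, 17.4 and 19.8 CPM in controls and 47.8, 72.2, 47.4 and 32.8 CPM after PSD. Its log2 fold change was 1.49 (adjusted p = 0.0560, not called). Serpinb11, a serpin, was at between 2.01 and 3.28 CPM in controls and between 6.16 and 22.95 CPM after PSD, a log2 fold change of 2.15 (adjusted p = 0.0598). The calcium sensor gene Cabp1 had a narrow spread, with 7.24 to 9.67 CPM in controls and 12.95 to 15.8 CPM after PSD (log2 fold change 0.77). Sorcs1, a sorting receptor of the Vps10 family, stood at 5.99 ± 1.11 CPM (SD, n = 4) in controls and 10.6 ± 1.39 CPM (SD, n = 4) after PSD. Plk5, of the polo-like kinase family, had 9.94 to 12.9 CPM in controls and 16.8 to 20.4 CPM after PSD (log2 fold change 0.78, adjusted p = 0.0560). Tbkbp1, Rasl10b, Mgp, Thsd7b and the transcript listed as Gm9949_ stood beside them at log2 fold changes of 0.57, 0.65, 0.49, 0.49 and 1.001, and Cpe is described with the granins.

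On the lower side the log2 fold changes of the 15 ran from -0.22 to -2.71. Mmel1, a membrane metalloendopeptidase, was at 1.07, 1.96, 1.26 and 3.502 CPM in controls and at 0.254, 0.214, 0.244 and 0.390 CPM after PSD. Its log2 fold change was -2.71 (adjusted p = 0.0671, not called). Chodl, a membrane lectin, had 1.98 to 4.19 CPM in controls and 0.488 to 1.22 CPM after PSD (log2 fold change -2.14, adjusted p = 0.0598). Rxfp1, the relaxin receptor, was counted at 36.9, 70.0, 43.3 and 80.0 CPM in control mice 1 to 4. After PSD it was at 22.4, 7.525, 8.67 and 19.8 CPM (log2 fold change -1.95, adjusted p = 0.0952). Both groups spread widely for Rxfp1, but the lowest control remained above the highest PSD mouse. The sodium channel gene Scn11a had 6.47 CPM in control mouse 1 and 10.1 to 10.7 CPM in the other controls, against 2.58 to 4.38 CPM after PSD (log2 fold change -1.35, adjusted p = 0.0560). C2cd4c had a log2 fold change of -1.17 and the antisense transcript Foxl2os one of -0.68, and since the counting is not stated to use strand, reads of Foxl2os and Foxl2 may be mixed. Rasa4, a Ras GTPase-activating protein, Cep126, Sgsm2, Larp7, Gart, Maged2, Apbb1 and Mettl1 had small differences, from -0.22 to -0.37 on the log2 scale, with tight groups. Maged2, for example, had 182 to 196 CPM in controls and 153.5 to 165 CPM after PSD.

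The series holds other mice in which PSD was compared with no PSD, and these share no animal with the 8 described here. The restrained females also differed in marker lists and in the lobe score described below. In PSD + restraint mouse 4 the astrocyte list summed to 222.3 CPM and the oligodendrocyte list to 202.6 CPM. Without PSD they summed to 102.9 to 123.5 CPM and 101.6 to 118.8 CPM. The score over 8 intermediate and posterior lobe genes was 3.925 to 4.849 without and 4.602 to 5.133 with PSD. The part of such tissue in the shared signs was not tested. In restrained females (PSD + restraint against restraint), 29 of the 30 genes had a log2 fold change of the same sign, Cep126 being the exception. An unadjusted p under 0.05 in that direction was reached by 25 of them there, 13 of the 15 upper and 12 of the 15 lower genes. Of all genes, 5.65% and 8.49% did so. Both female contrasts came from the same fit and share each gene's estimate of spread. The 30 were picked by small p from that fit, so their p-values in restrained females are not independent of the choice. Lcn2 and Plk5 were also called in the restrained females, among 4 genes called higher (0.0221%) and 2 lower (0.0111%). In males, 19 of the 30 genes had the same sign, 12 upper and 7 lower. Of these, 6 upper genes and none of the lower reached an unadjusted p under 0.05 in males, where 4.51% of all genes did so above control and 4.34% below, and 1 gene, not one of the 30, was called higher (0.00547%) and none lower (0.0%). The 6 were Lcn2, Clu, Nmb, Rab26, Cdh13 and Serpinb11. For Serpinb11 the log2 fold changes were 2.15 in unrestrained females, 1.74 in restrained females and 2.34 in males, and for Cdh13 they were 1.49, 1.29 and 1.49.

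Lcn2 in restrained females stood at 12.7 to 21.03 CPM without PSD and 39.1 to 50.3 CPM with it, which is 1.49 on the log2 scale (adjusted p = 0.00536). In males the levels were 49.6 to 59.7 CPM in controls and 72.0 to 82.7 CPM after PSD, a log2 fold change of 0.54 (adjusted p = 0.293). Neither group pair overlapped. Clu had log2 fold changes of 0.57 in restrained females (adjusted p = 0.148) and 0.54 in males (adjusted p = 0.389), and Nmb had 1.04 (adjusted p = 0.183) and 0.99 (adjusted p = 0.266). Rab26 and Cga differed less under restraint: Rab26 had a log2 fold change of 0.14 and ranges of 6.74 to 8.19 CPM without and 7.52 to 8.55 CPM with PSD. Cga had -0.26, with 2872 to 3855 CPM without and 2517 to 2876 CPM with PSD, so that both groups overlapped. The test of the difference between unrestrained and restrained females, the PSD by restraint interaction, gave an unadjusted p of 0.00169 for Rab26, 0.00489 for Cga, 0.0597 for Nmb, 0.165 for Clu and 0.605 for Lcn2, and adjusted p of 0.961 or more for all 5. Over all genes this interaction was called for 0 by edgeR and 0 by DESeq2, with 766 genes at an unadjusted edgeR p under 0.05. The contrast of females with males in their difference between PSD and control was called for 0 genes by edgeR, with 2038 at an unadjusted p under 0.05, and for 16 by DESeq2, and the adjusted p of the 5 genes lay between 0.302 and 0.652.

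**Figure D3:**
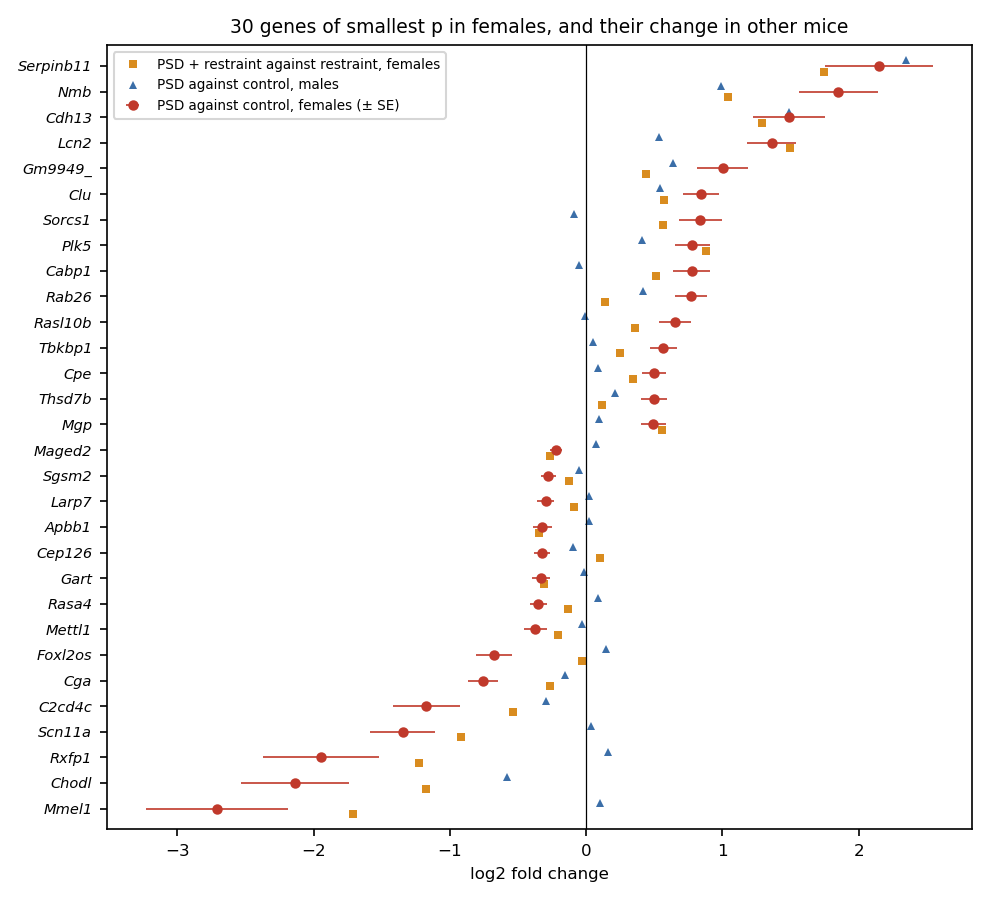
Log2 fold change (x axis) of the 30 genes of smallest p in PSD against control females (red, with standard error), in PSD + restraint against restraint females (orange squares) and in PSD against control males (blue triangles). The orange squares lie on the same side of 0 as the red points for 29 of 30 genes and the blue triangles for 19 of 30.

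Over all 18059 genes the sign was shared with restrained females by 68.4%, and by 89% of the 3567 genes with an unadjusted p under 0.05 and 98.7% of the 75 with an adjusted p of at most 0.10. With males these shares were 56.4% of the 17858 genes tested in both, 61.4% of 3523 and 68.5% of 73. The log2 fold changes of all genes had a Pearson correlation of 0.533 (Spearman 0.490) with those in restrained females and of 0.0706 (Spearman 0.152) with those in males, across genes, which are not independent replicates.

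Of 18 gonadotrope genes tested, 1 was called, and 7 had an unadjusted p under 0.05, all below control. The median log2 fold change was -0.13, where that of all genes was 0.00840. Of all genes tested, 10.6% lay above and 9.14% below control at an unadjusted edgeR p under 0.05. DESeq2 called 1.72% higher and 0.638% lower, and these shares stand beside every list count below. For counts of signs, 9314 of all 18059 genes had a log2 fold change above 0 and 8745 below. Lhb, the beta subunit of luteinizing hormone, was at 491, 429, 471 and 497 CPM in controls and 414, 315, 343 and 266 CPM after PSD. Every PSD mouse lay below every control for Lhb, whose log2 fold change was -0.48 (adjusted p = 0.109, not called). Nr5a1, which encodes steroidogenic factor 1, had 27.7 to 45.3 CPM in controls and 22.6 to 27.6 CPM after PSD (log2 fold change -0.51), and Foxl2, another gonadotrope factor, had 17.2 to 23.7 and 13.6 to 16.03 CPM (log2 fold change -0.41). Fshb, the beta subunit of follicle-stimulating hormone, went the other way in most mice. It was at 126, 101, 204 and 73.4 CPM in controls and at 68.1, 375, 459 and 360 CPM after PSD. PSD mouse 1 was thus below every control for Fshb and the other 3 PSD mice above every control, at a log2 fold change of 1.34 (adjusted p = 0.282). Gnrhr, the receptor of gonadotropin-releasing hormone, had a log2 fold change of -0.24 (unadjusted p = 0.139).

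The summed level of the gonadotrope list was 4234 to 5296 CPM in controls and 3250 to 3537 CPM after PSD without overlap, but Cga supplies most of it. In restrained females the sum was 4520 to 5602 CPM without PSD and 4166 to 4887 CPM with PSD, and there 1 of the 18 genes had an unadjusted p under 0.05.

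Some genes split the control mice into pairs, and those given here were chosen after their values were seen. Greb1 was at 108, 157, 104 and 188 CPM in control mice 1 to 4 and Pgr, the progesterone receptor, at 25.1, 39.1, 24.25 and 46.6 CPM. Gal, the galanin precursor, was at 10.52, 47.1, 8.42 and 75.0 CPM. Controls 2 and 4 thus lay above controls 1 and 3 in all 3 genes, and so they did for Rxfp1, Pcsk6 and Reln and for the summed heat shock, oxidative phosphorylation and endoplasmic reticulum folding lists. After PSD, Greb1 was at 52.0 to 85.1 CPM, Pgr at 16.65 to 23.6 CPM and Gal at 6.72 to 10.7 CPM, so that for Greb1 and Pgr every PSD mouse was below even the lower pair of controls, while for Gal the PSD mice lay close to controls 1 and 3. Their log2 fold changes were -0.94, -0.74 and -1.99 (adjusted p 0.127, 0.140 and 0.158, none called).

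Of 9 thyrotrope genes, 2 were called, Nmb higher and Cga lower, and Thrb, the thyroid hormone receptor beta, and Gata2 had an unadjusted p under 0.05 at log2 fold changes of -0.76 and 0.74. Tshb, the beta subunit of thyrotropin, was at 526, 257, 469 and 220 CPM in controls and 222, 390, 201 and 219 CPM after PSD. The groups overlapped widely for Tshb (log2 fold change -0.50, adjusted p = 0.288), unlike for Cga, with which it is expressed in thyrotropes.

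Prl, the lactotrope hormone, was counted at 155600, 197700, 175100 and 229500 CPM in controls and at 105200, 94580, 106200 and 166300 CPM after PSD. Mouse 4 alone of the PSD mice lay within the control range for Prl, whose log2 fold change was -0.67 (adjusted p = 0.115, not called). Of 8 lactotrope genes 0 were called by edgeR and 1 by DESeq2, and 3, Prl, Gal and the oestrogen receptor gene Esr1 (log2 fold change -0.21), had an unadjusted p under 0.05. Gh, the somatotrope hormone, was at 61570 to 96500 CPM in controls and at 60290, 67060, 62930 and 118800 CPM after PSD, with a log2 fold change of -0.05 (adjusted p = 0.930). None of 8 somatotrope genes was called by edgeR or by DESeq2 or had an unadjusted p under 0.05.

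Pomc, the precursor of adrenocorticotropin in corticotropes and of melanocyte-stimulating hormone in melanotropes, was at 66650, 36030, 48620 and 38830 CPM in controls. PSD mice 1 to 4 had 82760, 160800, 106100 and 68640 CPM. All PSD mice lay above all controls, although mouse 4 exceeded control mouse 1 by little, and the log2 fold change was 1.15 (standard error 0.30, adjusted p = 0.109, not called). Pcsk2, the convertase that cuts the Pomc product further in melanotropes, followed the same order of mice, with 638 to 976 CPM in controls and 1283, 2592, 1636 and 1028 CPM after PSD (log2 fold change 1.08, adjusted p = 0.113). Of 14 corticotrope and melanotrope genes none was called by edgeR, 3 were called higher by DESeq2, and 5 had an unadjusted p under 0.05 above control, Cpe, Pomc, Pcsk2, Pcsk1 and Pam. The median log2 fold change of the list was 0.24. Below control at an unadjusted p under 0.05 was Crhbp, which encodes the binding protein of corticotropin-releasing factor. Crhbp was at 83.0, 101, 55.7 and 163 CPM in controls and at 22.0, 4.59, 11.1 and 23.1 CPM after PSD. The groups were far apart, but the spread within each was large, and the log2 fold change of -2.69 had a standard error of 0.63 (adjusted p = 0.108). The corticotrope factor Tbx19 had a log2 fold change of 0.23 and the receptor genes Crhr1 and Avpr1b had 0.22 and -0.19, all at an unadjusted p above 0.05.

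A score over 8 intermediate and posterior lobe genes, their mean log2 CPM, ranked the PSD mice as Pomc and Clu did. It was 3.92 to 4.47 in controls and 4.51 to 5.21 after PSD, highest in PSD mouse 2 and lowest in PSD mouse 4. Pcsk2, Pax7, Avp and Oxt are among the 8. The summed level of the posterior lobe and pituicyte list, which shares genes with the score and also holds Gfap, was 141 to 186 CPM in controls and 406, 245, 235.5 and 169 CPM in PSD mice 1 to 4, highest in mouse 1. Pax7, the factor that marks melanotropes, was at 50.8 to 62.9 CPM in controls and at 73.5, 115.7, 77.0 and 47.2 CPM after PSD (log2 fold change 0.51, adjusted p = 0.258), so that PSD mouse 4 lay below every control. The posterior lobe peptides Oxt and Avp had log2 fold changes of 0.53 and 0.79 (adjusted p = 0.246 and 0.171). With the score as a covariate the log2 fold changes were 0.48 for Pomc, 0.39 for Pcsk2, itself part of the score, and 0.59 for Chga, and 0 genes were called, with 1926 at an unadjusted edgeR p under 0.05. The 5 genes kept their direction in that fit, at 0.77 for Rab26, 1.24 for Lcn2, -0.70 for Cga, 0.61 for Clu and 1.28 for Nmb, with adjusted p between 0.0513 and 0.153. Because the score did not overlap between the 2 groups, this fit cannot fully separate it from PSD. Whether a different amount of intermediate lobe in the glands had a part in these values was not tested.

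Granins and prohormone-processing genes did not move in one direction. Of 17 tested, 0 were called by edgeR and 7 by DESeq2, 5 higher and 2 lower. At the unadjusted limit 7 lay above and 3 below control with p under 0.05, and the median log2 fold change was 0.06. Chga, chromogranin A, was at 925 to 1131 CPM in controls and 1746, 2838, 2104 and 1447 CPM after PSD (log2 fold change 1.03, adjusted p = 0.0738). Vgf, the precursor of several neuroendocrine peptides, had 8.11 to 15.4 CPM in controls and 29.5, 42.0, 32.4 and 19.7 CPM after PSD (log2 fold change 1.28, adjusted p = 0.0742). Scg2, secretogranin II, had 1351 to 1783 and 1902 to 3054 CPM (log2 fold change 0.61), and Cpe, carboxypeptidase E, had 674 to 772 and 934 to 1170 CPM (log2 fold change 0.50, adjusted p = 0.0591). In these 4 genes the groups did not overlap and PSD mouse 2 was the highest of its group. Chgb, chromogranin B, stood the other way round, at 3998 to 4643 CPM in controls and 2690, 3291, 2826 and 4078 CPM after PSD (log2 fold change -0.43, adjusted p = 0.136), with PSD mouse 4 inside the control range. Pcsk6, a convertase of the constitutive pathway, was at 240 to 621 CPM in controls and 136 to 198 CPM after PSD without overlap (log2 fold change -1.23, adjusted p = 0.118). Of 24 vesicle traffic genes 1 was called, Rab26, 5 lay above and 1 below control at an unadjusted p under 0.05, and the median log2 fold change was 0.06. Rab3b, another secretory vesicle GTPase, had 58.6 to 92.4 CPM in controls and 93.4 to 113 CPM after PSD (log2 fold change 0.49, adjusted p = 0.109).

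**Figure D4:**
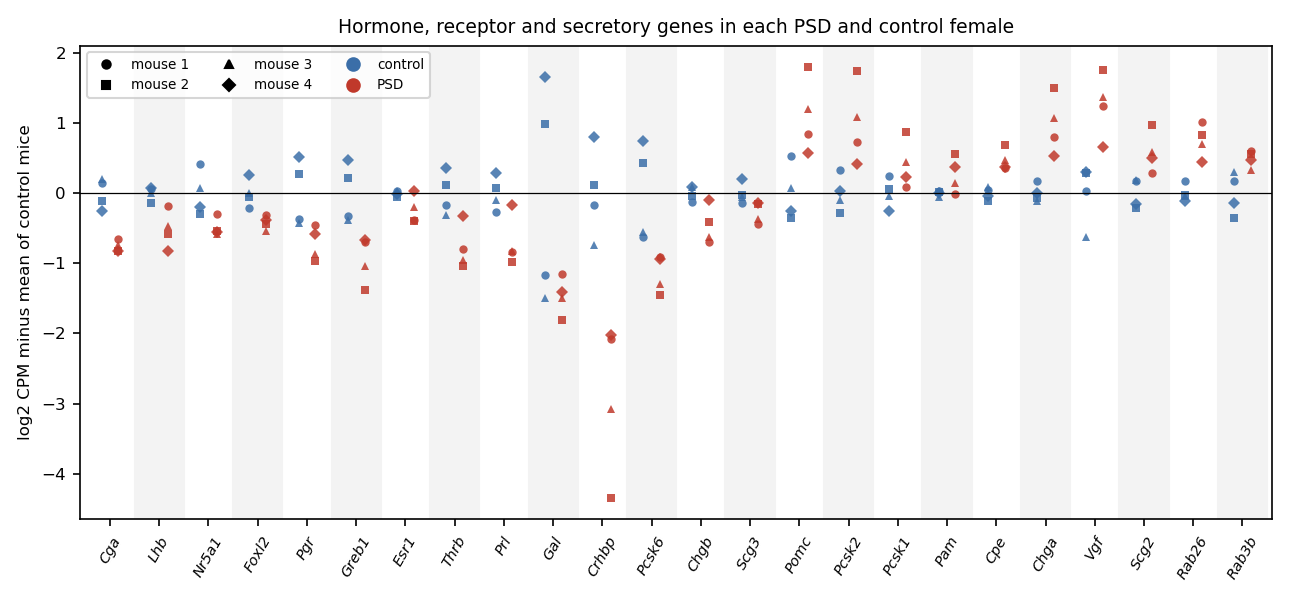
Log2 CPM of 24 hormone, receptor and secretory genes in each mouse, minus the mean of the controls (y axis), controls in blue and PSD in red with a symbol for each mouse number. Cga and Rab26 are the called genes of the plot. In Gal and Pcsk6 the control mice split into 2 and 4 above 1 and 3, and in Pomc, Pcsk2, Chga and Vgf PSD mouse 2 is the highest and mouse 4 the lowest of the PSD group.

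Acute phase and inflammatory genes held 2 of the 5 called genes, Lcn2 and Clu, but this list, like the others, was made with earlier results of these data known. Of 22 tested, 8 lay above control at an unadjusted p under 0.05 (Lcn2, Clu, Serpina3n, A2m, Cp, Gsn, C4b and Icam1) and 1, Nfkbia, lay below. The median log2 fold change was 0.33. The summed level of the list was 894 to 1053 CPM in controls and 1334, 1681, 1511 and 1242 CPM after PSD, and in restrained females 1033 to 1179 CPM without and 1246 to 1500 CPM with PSD. Clu supplies most of these sums and most of their difference, with means of 540 and 957 CPM of list means of 975 and 1442 CPM in controls and after PSD. Serpina3n, a serpin of the acute phase, was at 0.927, 0.936, 0.979 and 0.424 CPM in controls and 27.1, 4.11, 2.92 and 2.39 CPM after PSD. Each PSD mouse exceeded each control, but mouse 1 was far above the rest, and this gene belongs to a family of near-identical copies among which reads can be split. The log2 fold change of 3.48 (adjusted p = 0.0742) was 1.93 without PSD mouse 1. Gsn, the actin-severing protein gelsolin, had a log2 fold change of 0.44. A2m, a protease inhibitor, had 11.1 to 14.8 CPM in controls and 17.2 to 28.8 CPM after PSD (log2 fold change 0.78, adjusted p = 0.0952). Nfkbia, the inhibitor of NF-kB, was at 58.1 to 82.8 CPM in controls and 35.2 to 50.9 CPM after PSD (log2 fold change -0.73, adjusted p = 0.108). The cytokine-induced genes of the interferon list (19 tested) had no gene called by edgeR or DESeq2 and none at an unadjusted p under 0.05.

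Macrophage genes lay slightly above control. All 16 tested had a log2 fold change above 0, with a median of 0.27 and a highest of 0.69, 7 had an unadjusted p under 0.05 and none was called by edgeR and 1 by DESeq2. Without PSD mouse 1 these 7 became 3 and the median 0.19. Trem2, a receptor of microglia and macrophages, was at 2.12 to 2.62 CPM in controls and 4.885, 3.52, 4.33 and 2.76 CPM after PSD (adjusted p = 0.108). The summed level of the macrophage list was 154 to 165 CPM in controls and 223, 180, 191 and 162 CPM in PSD mice 1 to 4. The order of the PSD mice is that of the brain markers below for mice 1 and 3, and the part of brain tissue in these values was not tested. None of 11 MHC class II genes was called by edgeR or DESeq2 or reached an unadjusted p under 0.05, and their median log2 fold change was -0.11. Their summed level was 258 to 297 CPM in controls and 202 to 247 CPM after PSD, without overlap.

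Among stress and timing programmes, 22 glucocorticoid target genes included 1 called gene, Lcn2, and 1 above and 3 below control at an unadjusted p under 0.05. Fkbp5, a sensitive target of the glucocorticoid receptor, had a log2 fold change of -0.08 and Per1 one of -0.03, and the receptor gene Nr3c1 one of -0.10. Of 36 immediate early genes 0 were called by edgeR or DESeq2, 2 lay above and 1 below control at an unadjusted p under 0.05, and PSD mouse 2 had 219 CPM of Fos and 228 CPM of Egr1, where the other 7 mice had at most 43.5 and 76.2 CPM. Of 20 clock genes 5 lay above control at an unadjusted p under 0.05, and 0 were called by edgeR and 2 by DESeq2. Hlf was at 37.6 to 45.0 CPM in controls and 49.4 to 55.2 CPM after PSD (log2 fold change 0.36, adjusted p = 0.108), and the core clock gene Arntl had a log2 fold change of -0.08. Of 20 genes of the ATF4 and serine pathway 7 lay above control at an unadjusted p under 0.05, of which Atf5 had the smallest p (log2 fold change 0.53, adjusted p = 0.108), with a median of 0.40 over the list, and 0 were called by edgeR and 2 by DESeq2. In endoplasmic reticulum folding 18 of 20 genes had a log2 fold change below 0 and 4 of them (Sec61b, Xbp1, Dnajb9 and Manf) an unadjusted p under 0.05, with 0 called by edgeR and 1 by DESeq2. In Dnajb9 and Manf the difference came with high values in controls 2 and 4, which had 169 and 247 CPM of Dnajb9 against 115 and 132 CPM in controls 1 and 3 and 98.3 to 131 CPM after PSD.

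Of 83 cytosolic ribosomal protein genes, 77 had a log2 fold change below 0 and 34 an unadjusted p under 0.05, all of these below control (21 without PSD mouse 1). None was called by edgeR and 2 were by DESeq2, and the median log2 fold change was -0.16. The summed level was 13720, 15960, 13350 and 15880 CPM in controls and 12360 to 13320 CPM after PSD, without overlap, and the difference from controls 1 and 3 was smaller than that from controls 2 and 4. In contrast, 42 of 78 oxidative phosphorylation genes had a log2 fold change above 0, as did 9314 of all 18059 genes. Of the 78, 1 had an unadjusted p under 0.05, and their median was 0.00750.

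Transcripts of other tissues were not spread evenly over the PSD mice. The olfactory sensory neuron list (8 of 8 genes tested) summed to 35.2 to 58.5 CPM in controls and 159, 43.1, 45.5 and 34.9 CPM in PSD mice 1 to 4. Its defining gene Omp, olfactory marker protein, was at 0.141, 12.0, 0.140 and 0.198 CPM in controls and 81.1, 0.747, 3.798 and 0.463 CPM after PSD. PSD mouse 1 thus had the highest level, and control mouse 2 came next. No gene of this list was at 0 in any of the 8 mice, and 2 of 8 had an unadjusted p under 0.05.

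The forebrain neuron list, with 18 of its 22 genes tested, summed to 287, 516, 294 and 569 CPM in controls and to 647, 214, 290 and 232 CPM in PSD mice 1 to 4. Reln, which encodes the secreted protein reelin, supplies much of the control values, with 113, 342, 126 and 412 CPM. Without regard to Reln, interneuron genes stood out in PSD mouse 1: Gad1 was at 102 CPM there, at 16.3 CPM in PSD mouse 3 and at 1.19 to 8.95 CPM in the other 6 mice. Th, the rate-limiting enzyme of dopamine synthesis, was at 37.9 CPM in PSD mouse 1, 6.96 CPM in mouse 3 and at most 2.78 CPM elsewhere. Its log2 fold change of 3.18 (adjusted p = 0.125) became 1.38 without PSD mouse 1. Trh, the precursor of thyrotropin-releasing hormone, was at 19.1 CPM in PSD mouse 1, 2.63 CPM in mouse 3 and at most 1.248 CPM in the others, and its log2 fold change of 3.41 (adjusted p = 0.140) became 1.06 without mouse 1. The hypothalamic list, of which 7 of 13 genes were tested, summed to 3.89 to 7.58 CPM in controls and 52.4, 5.34, 9.01 and 4.56 CPM after PSD, with up to 6 of its genes at 0 in a mouse.

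Glial genes stood out in the same mice. The oligodendrocyte list (11 of 12 tested) summed to 103 to 119 CPM in controls and 383, 104, 195 and 111 CPM after PSD, and the astrocyte list (10 of 10) to 91.1 to 110 CPM and 463, 124, 173 and 96.7 CPM. Gfap, the intermediate filament of astrocytes and pituicytes, was at 5.09 to 6.997 CPM in controls and 76.2, 8.27, 13.8 and 7.17 CPM after PSD. Agt, angiotensinogen, was at 1.89 to 2.18 CPM in controls and 19.5, 2.19, 5.06 and 2.0 CPM after PSD. For both genes the PSD mice 2 and 4 lay near the controls, and the log2 fold changes of 2.202 and 1.85 (adjusted p = 0.126 and 0.129) became 0.76 and 0.62 without mouse 1. Without that mouse the astrocyte genes above control at an unadjusted p under 0.05 numbered 1 instead of 9, the oligodendrocyte genes 2 instead of 7 and the forebrain genes 1 instead of 8. In the same fit 7.35% of all genes lay above and 8.04% below control at that limit. The gonadotrope genes below control then numbered 6 instead of 7 and those above it 2 instead of 0 (Fshb and Egr1), the granin genes 7 above and 3 below as before, and the acute phase genes 6 instead of 8 above.

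Because the groups of the 5 called genes did not overlap, leaving out mice could not reverse their direction. Without PSD mouse 1 their log2 fold changes were 1.24 for Lcn2, 0.90 for Clu, 1.84 for Nmb, 0.66 for Rab26 and -0.80 for Cga. In that fit 4 genes were called, Lcn2, Clu, Cga and the matrix protein gene Mgp, while Nmb and Rab26 had an adjusted p of 0.0667. Without PSD mice 1 and 3, a setting chosen after seeing the data, they were 1.24, 0.89, 1.88, 0.64 and -0.83, with adjusted p between 0.1499 and 0.219, and 0 genes were called by edgeR, with 1744 at an unadjusted p under 0.05. With the forebrain score as a covariate, Clu was the gene still called (adjusted p = 0.0490), and the log2 fold changes of the 5 lay between -0.79 and 1.94. The part of carried-over olfactory and forebrain tissue in other genes was not tested beyond these values.

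**Figure D5:**
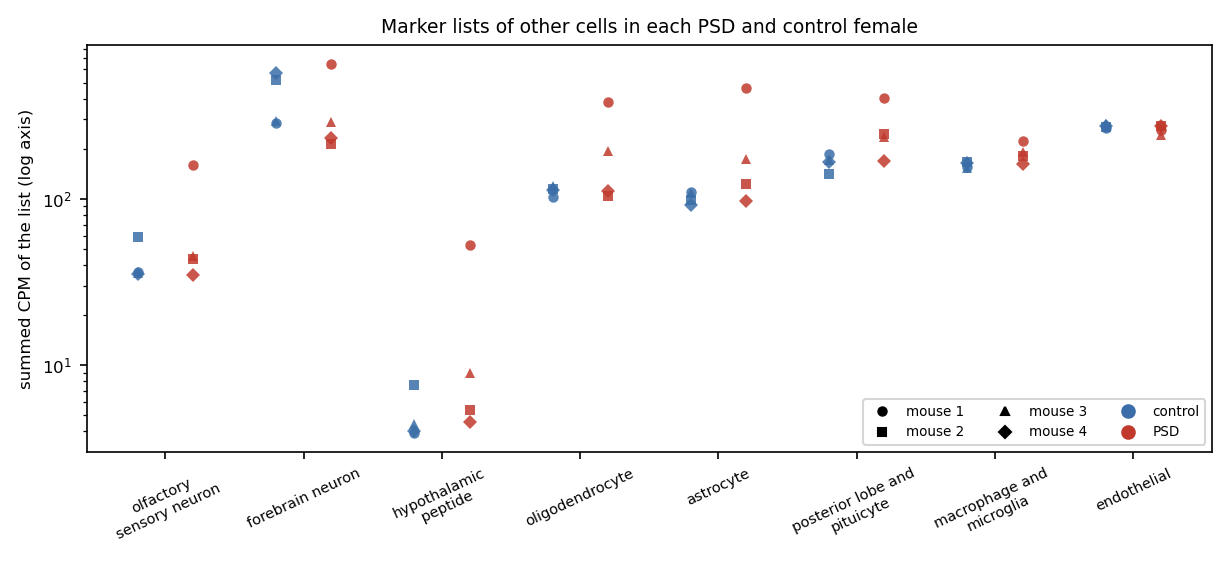
Summed CPM (log axis) of 8 marker lists in each control (blue) and PSD (red) mouse, with a symbol for each mouse number. PSD mouse 1 is the highest point in 7 of the 8 lists, all but the endothelial one, and PSD mouse 3 is second among the PSD mice for the olfactory, forebrain, hypothalamic, oligodendrocyte, astrocyte and macrophage lists.

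Supporting cells of the gland gave mixed counts. Of 13 stem and folliculostellate genes 7 lay above control at an unadjusted p under 0.05 (4 without PSD mouse 1), of 11 posterior lobe and pituicyte genes 6 (2 without it), and of 43 collagen genes 11 above and 2 below (7 and 2 without it). None of these was called by edgeR, and DESeq2 called 1, 1 and 6 of them. Among 16 endothelial genes 1 lay above and 1 below control at that limit, the latter being Aplnr, the apelin receptor, at a log2 fold change of -0.88. Of 16 cytosolic heat shock genes 2 lay above and 4 below, and of 18 cell proliferation genes 1 lay above. In either direction these were 12.5% of endothelial, 37.5% of heat shock and 5.56% of proliferation genes, where 19.8% of all genes passed that limit.

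PSD mouse 4 lay closest to the controls for many genes. Among the 3567 genes with an unadjusted p under 0.05 it was the PSD mouse nearest to the control side for 53.5%, against 19.9%, 15.2% and 11.4% for mice 1, 2 and 3, and it was the farthest for 8.77%. It also had the deepest PSD library, at 42243802 counts. Without it, 557 genes were called by edgeR, 469 higher and 88 lower, the 5 genes among them, where the fit with all mice called 5. With every library thinned to the depth of the smallest female library the full comparison called 12 genes, 4 of them from the 5.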

How the data were processed

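Whole pituitaries were sequenced as stranded mRNA libraries of paired reads. The deposited values are unnormalized counts per gene and mouse, made by the authors with MapSplice alignment to mm10 and HTSeq 0.9.1 on UCSC annotation. A second deposited table, of normalized values, was not used. Of 32594 genes, those passing edgeR's filterByExpr were tested in R 4.3.3 with edgeR 4.0.16 (quasi-likelihood, TMM), 1 mean for each of the 4 female groups over 16 females; standard errors are the log2 fold change divided by the root of F. Alternatives used DESeq2 1.42.0 and limma 3.58.1. Depth was 18035775 to 47530774 counts in the 8 mice, and precision is limited by 4 mice a group; pairs of mice in a group differed by more than counting noise (chi-square per degree of freedom 12 or more). CPM values use TMM factors over the females or the males.

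The text names the called genes, 15 genes a side of smallest p with separated groups at a mean of at least 1 CPM, list members of smallest p, hormones and genes the study names; other list members it names were chosen after their values were seen. The members and all 32 gene lists were chosen with earlier results of these data known, so list counts are descriptions. The code was tested on simulated data. Positions are from GENCODE M21 and promoters from RefSeq GRCm38.p6, whose table held 3 of the 5 called genes; Clu and Rab26 had no entry. One gene's own result is not reported here.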

Additional observations from a re-analysis of the deposited data

Results flagged for a closer look

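Among 160 values checked, each a gene or a list in 1 group of 4 mice, 19 had 1 mouse standing apart from the other 3, where chance alone flags about 1 in 20. In the PSD group, mouse 1 was the highest for Th (37.9 CPM), Gfap (76.2 CPM), Trh (19.1 CPM) and Tbkbp1 (16.8 CPM) and for the summed olfactory (158.9 CPM) and hypothalamic (52.4 CPM) lists. PSD mouse 2 was the highest for Tshb (390 CPM) and for the summed immediate early (1850 CPM) and cell proliferation (111.3 CPM) lists. PSD mouse 4 was the highest for Gh (118800 CPM) and Prl (166300 CPM), and so for the somatotrope (119300 CPM) and lactotrope (166800 CPM) lists that these genes dominate, and the lowest for the ATF4 and serine list (541.8 CPM).

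Among controls, mouse 1 was the lowest for Scn11a (6.47 CPM) and the highest for the stem and folliculostellate list (787.3 CPM), mouse 3 was the lowest for Tbkbp1 (8.28 CPM), and mouse 2 was the highest for the olfactory (58.5 CPM) and hypothalamic (7.58 CPM) lists.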

How the results depend on the processing

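The count of 5 genes called after PSD in females was 406 with DESeq2, 3 with limma-voom, 14 with at least 10 counts in every female, 0 with only the 8 mice of the comparison in the fit (3023 at an unadjusted p under 0.05), 12 with counts thinned to the smallest library, 0 with the neurointermediate lobe score and 1 with the forebrain score as a covariate, and 0 without PSD mice 1 and 3. Leaving out each mouse in turn gave 0 to 557 genes: 0 without control 2, control 3 or PSD mouse 2, 1 without control 1 or control 4, 2 without PSD mouse 3, 4 without PSD mouse 1 and 557 without PSD mouse 4. The counts of 0 had 2560, 3823 and 3015 genes at an unadjusted edgeR p under 0.05, and DESeq2 was not run on them. With the replicate block, which takes the mouse number as a further term, 24 genes were called, but the numbers do not pair the mice (correlations of the deviations of same-numbered mice from -0.148 to 0.0979). The cause of these moves was not tested, and the fits that left out a mouse also held fewer mice. None of the 5 genes changed direction. Leaving out mice could not have reversed them, since their groups did not overlap. The mean log2 CPM of the thyrotrope, endothelial, glucocorticoid target, heat shock, interferon and oxidative phosphorylation lists lay near 0 and changed sign when 1 mouse was left out, and that of the gonadotrope list did so with library sizes in place of TMM (-0.05 to 0.000675), as did the endothelial, glucocorticoid target and heat shock lists, each by less than the spread between mice. Over 20 settings each, Lcn2 remained called in 12, Cga and Clu in 11 and Nmb and Rab26 in 7.

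The 6 genes called in restrained females were 90 with DESeq2, 3 with the forebrain score and 1 to 41 with a mouse left out (41 without restraint mouse 2, 1 without restraint mouse 1, 3 or 4 or PSD + restraint mouse 2, 2 without PSD + restraint mouse 3 and 3 without its mouse 1). The count of 1 in males was 76 with DESeq2 and 0 to 7 with a mouse left out (7 without control mouse 1, 3 without control mouse 4, 0 without control mouse 2 or 3 or PSD mouse 1 or 3), and the female against male difference gave 16 with DESeq2. The PSD libraries were shallower than the controls except for mouse 4, and precision is limited by 4 mice a group.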
